A study of Mus musculus with 6 samples.

Results

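The 9 genes described here make, carry, sense and break down retinoic acid, the active form of vitamin A. They are Rbp4, Stra6, Crabp1, Crabp2, Aldh1a1, Aldh1a2, Aldh1a3, Cyp26b1 and Rarb, out of 23107 genes counted in adult mouse aortic valves. The list was chosen by the level of Crabp2, which was lower in every mutant library than in every control library, so the comparison of mutants with controls is a description for these genes and carries no test. The valves came from outbred mice aged 4 months, with 3 control and 3 mutant libraries and no common treatment. The mutants, caAcvr1:Nfatc1Cre, carried a transgene for a constitutively active Acvr1, a BMP type I receptor, which is switched on by a Cre recombinase knocked into the Nfatc1 locus. That Cre is active in the endocardium, in the valve interstitial cells derived from it and at the leaflet-wall junction. The labels call the controls wild type, whereas the study's methods allow controls with either transgene alone or with neither. How many mice went into a library is not given in the sources used here, so the spread between libraries may be partly technical.

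Retinol travels in the blood bound to the protein encoded by Rbp4 and can enter cells through the receptor encoded by Stra6. Alcohol and retinol dehydrogenases oxidize it to retinal, and the Aldh1a enzymes oxidize retinal to retinoic acid. Inside the cell the acid is bound by the Crabp proteins. Crabp2 is known to deliver it to nuclear receptors such as the one encoded by Rarb, while Crabp1 is linked to its breakdown by Cyp26 enzymes. In the developing heart, Aldh1a2 is the main source of retinoic acid and is expressed in the epicardium, and both too little and too much of the acid disturb the outflow tract.

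Retinoic acid receptors bind pairs of short direct repeats, the retinoic acid response elements, and several genes of the pathway are themselves targets. Promoter windows from 250 bases before to 50 bases after a start site were taken from RefSeq (GRCm38.p6) and searched on both strands for 2 copies of a half-site in the same direction, 1, 2 or 5 bases apart. The half-sites allowed were AGGTCA itself, its variants AGTTCA with T and GGGTCA with G, and also GGTTCA with both. Of 32851 windows, 0.588% held such a repeat, and 0.0974% held one with a spacing of 5 bases. RefSeq windows were matched for 7 of the 9 genes, all but Crabp2 and Aldh1a3. Of these 7, Rarb was the single one with a repeat, which had a spacing of 5. It ran from base -53 to base -37 before the start site of its 1 window. That start site lies inside the span given for Rarb below, not at its upstream end. Among 37 other genes of the pathway with a window, 2 held a repeat, Bco1 and Cyp26a1. The other stretch below is from Cyp26a1, a retinoic acid-degrading enzyme of the same family as Cyp26b1, whose repeat lies on the opposite strand from base -32 to base -16. Rarb and Cyp26a1 are shown because both are classic targets of the acid. Both are printed on the gene's strand with the half-sites in capitals, Rarb from chr14:16575477-16575589 (minus strand) and Cyp26a1 from chr19:37697716-37697807 (plus strand).
Rarb: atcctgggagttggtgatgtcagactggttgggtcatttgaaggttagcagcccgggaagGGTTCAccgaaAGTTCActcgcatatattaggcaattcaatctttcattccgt
Cyp26a1: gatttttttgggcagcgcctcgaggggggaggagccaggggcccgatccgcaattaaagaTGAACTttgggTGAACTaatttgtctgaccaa

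Library totals ran from 32218343 to 55728854 fragments, and levels below are in CPM, the usual count scaled to sequencing depth, with library sizes adjusted by TMM. Markers of fibroblasts and interstitial cells summed to between 12502 and 16377 CPM over 8 genes, and endothelial markers to between 2200 and 3280 CPM over 8 genes, so both cell classes of the labelled tissue were read in every library. Cardiac muscle markers, 10 genes, summed to between 12648 and 41922 CPM, so every library also held muscle RNA. Control replicate 2 stood apart from the other libraries, with the highest value of all 11 mesothelial or epicardial markers and the lowest cardiac muscle sum. It was also highest in 7 of 8 smooth muscle markers and in 7 of 8 adipocyte markers. Its smooth muscle sum was 14389 CPM, against 3888 to 7914 CPM in the others. Acvr1 itself lay between 49.1 and 67.4 CPM among the controls and between 49.9 and 57.9 CPM among the mutants. Its groups overlapped, and the counts do not tell transgene from endogenous fragments.

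All 9 genes passed the minimum of 10 counts in at least 3 libraries. Crabp2 passed through its controls alone, since 0 of the 3 mutant libraries reached 10 counts, so a gene of this kind had to differ to be tested. In 2 of the 9 genes, Crabp2 and Stra6, all 3 mutants lay below all 3 controls, and in 0 did all mutants lie above. Over the 15354 genes tested these shares were 4.83% below and 4.04% above. Because the same contrast chose the list, nothing is read from that count. In the plot of levels by library, the 6 bars of Crabp2 and Stra6 separate by group, and those of the other 7 genes do not.

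**Figure D1:**
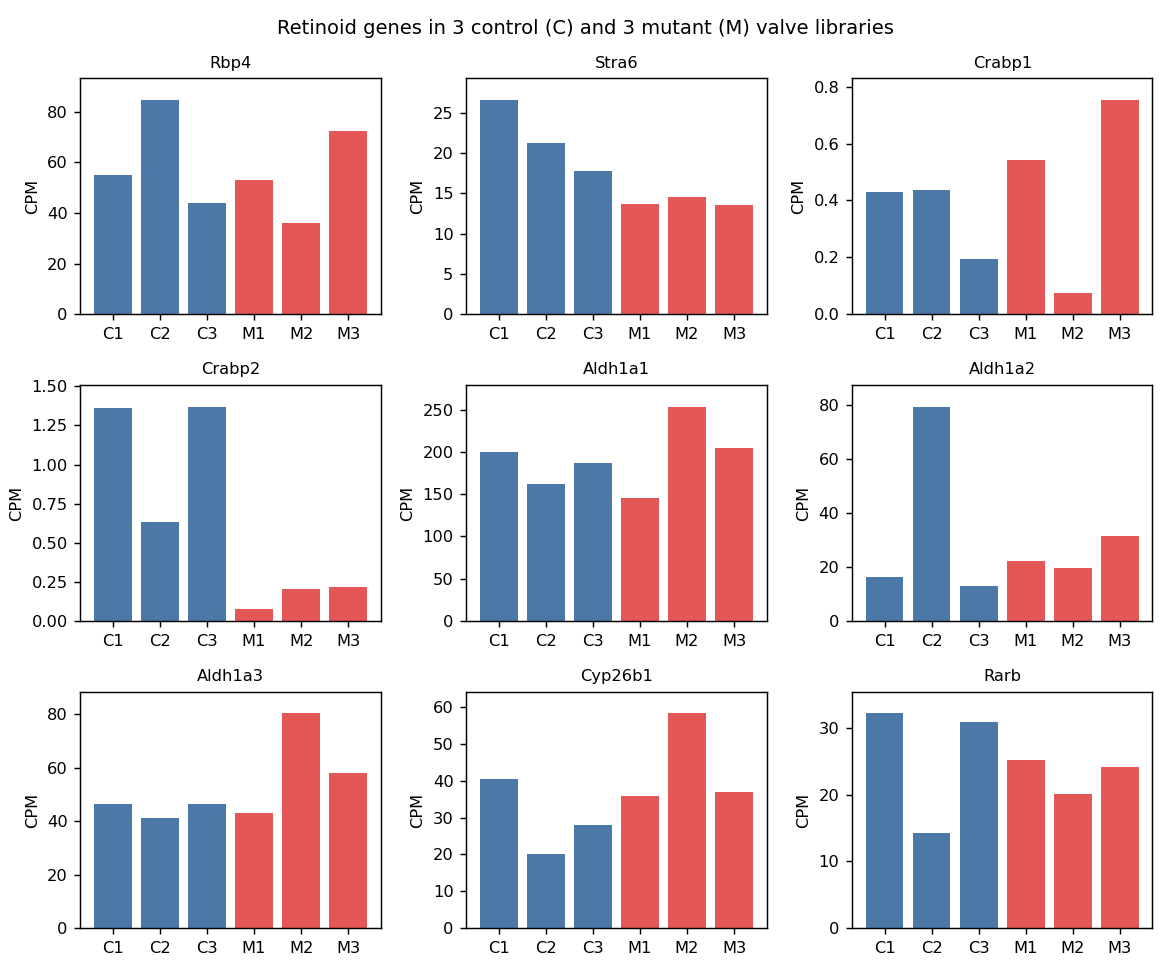
Level of each of the 9 genes in CPM (linear axes from 0, a different scale in each panel) in control replicates 1 to 3 (C1 to C3, blue) and mutant replicates 1 to 3 (M1 to M3, red). Each bar is 1 library. Crabp2 ran from 0.633 to 1.37 CPM in the controls and from 0.0772 to 0.220 CPM in the mutants, while Aldh1a2 reached 79.5 CPM in control replicate 2 alone.

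Crabp2 (chromosome 3 of GRCm38, 87948666 to 87953376, plus strand) encodes the cellular binding protein that carries retinoic acid to its receptors. It was counted with 73, 32 and 63 fragments in control replicates 1, 2 and 3, and with 4, 8 and 7 in mutant replicates 1, 2 and 3, 168 fragments against 19 in all. These are 1.36, 0.633 and 1.37 CPM in the controls and 0.0772, 0.202 and 0.220 CPM in the mutants. Every mutant was below the lowest control, which lay 2.88 times above the highest mutant. In CPM, the 95% exact Poisson interval of the lowest control, 0.433 to 0.893, overlapped that of mutant replicate 3, 0.0884 to 0.453. In fragments, not scaled to depth, these intervals were 21.9 to 45.2 and 2.81 to 14.4 and did not overlap. These intervals cover counting error only. The controls averaged 1.12 ± 0.423 CPM (SD, n = 3), against 0.166 ± 0.0778 CPM (SD, n = 3) for the mutants. On the log2 scale the difference was -2.77 with a standard error of 0.59, a level 6.81 times higher in the controls, and it lay between -3.05 and -2.40 when single libraries were left out. In bulk tissue, fewer cells that express a gene and less RNA in each cell cannot be told apart.

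The summed levels of some other markers also separated the groups, those of macrophages and, through 1 gene, those of epithelium, whereas those of smooth muscle overlapped. The 4 epithelial markers, of which 3 could be tested, summed to 8.32, 23.3 and 13.7 CPM in control replicates 1, 2 and 3 and to 3.90, 6.91 and 6.34 CPM in mutant replicates 1, 2 and 3. Krt14, a keratin of basal epithelium, was the 1 gene of the 4 with all mutants below all controls, while Cdh1 and Epcam overlapped. It was the largest part of that sum in every library except mutant replicate 1, where Cdh1 was larger (2.16 against 1.12 CPM), and Krt5 was at 0 counts in all 3 mutants and in control replicate 1. Within the controls the order differed, since the epithelial sum was highest in control replicate 2, where Crabp2 was lowest. Macrophage markers, with 8 of 9 listed symbols in the table, summed to between 1302 and 1448 CPM in the controls and between 1716 and 1866 CPM in the mutants, and 4 of the 8 lay above all controls in every mutant. The 8 smooth muscle markers summed to 7090 to 14389 CPM in the controls and to 3888 to 7226 CPM in the mutants, so the sums overlapped. Of these 8, 3 lay below all controls in every mutant. Over the 15354 genes tested, 4.04% lay above all controls in every mutant and 4.83% below. Markers of a list can rise and fall together, as 7 of the 8 smooth muscle markers were highest in control replicate 2. These counts are therefore not independent results. The part of these cell classes in the level of Crabp2 or Stra6 was not tested.

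Crabp1 (chromosome 9, 54764748 to 54773110), whose coding sequence is 70.8% identical to that of Crabp2, was also counted with few fragments. It was counted with 23, 22 and 9 fragments in control replicates 1, 2 and 3 and with 28, 3 and 24 in the mutant replicates of the same numbers. The sums were 54 fragments in the controls and 55 in the mutants, and the groups overlapped. Its mean was 0.353 ± 0.137 CPM (SD, n = 3) for controls, against 0.457 ± 0.346 CPM (SD, n = 3) for mutants. The log2 difference of Crabp1, 0.36 with a standard error of 0.79, was smaller than its error and turned to -0.17 without mutant replicate 3. Per length of merged exons, Crabp2 made up 65.8%, 46.9% and 80.9% of the 2 binding proteins' RNA in the controls, and 7.98%, 61.8% and 15.03% in the mutants. The share of mutant replicate 2 lay within the range of the controls, and its Crabp1 level was the lowest of the 6 libraries, at 0.0759 CPM.

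Rbp4 and Stra6 bring retinol to the cell. Stra6, the receptor for retinol bound to Rbp4 (chromosome 9, 58063788 to 58153996), was read at 26.6, 21.2 and 17.8 CPM in control replicates 1, 2 and 3 and at 13.6, 14.5 and 13.6 CPM in mutant replicates 1, 2 and 3. The mutants lay within a narrow band below all controls, and the lowest control was 1.23 times the highest mutant. From 432 to 1426 fragments stood behind each value. The controls averaged 21.9 ± 4.44 CPM (SD, n = 3), against 13.9 ± 0.516 CPM (SD, n = 3) for the mutants, a log2 difference of -0.65 (standard error 0.17). Leaving out single libraries gave -0.78 to -0.49.

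Rbp4, the carrier of retinol in plasma, which is made chiefly by liver and fat (chromosome 19, 38116629 to 38125281), was read at 54.9, 84.6 and 44.0 CPM in the controls and at 52.8, 36.1 and 72.3 CPM in the mutants. Its groups overlapped throughout. The log2 difference was -0.19 with a standard error of 0.31, and it was 0.12 without control replicate 2 and 0.03 without mutant replicate 2. The libraries with the highest Rbp4, control replicate 2 and mutant replicate 3, also had the highest sums of 8 adipocyte markers, 1426 and 1087 CPM, against 403 to 546 CPM in the other 4 libraries. The 4 hepatocyte markers summed to at most 0.840 CPM. The part of fat cells in the Rbp4 level was not tested.

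**Figure D2:**
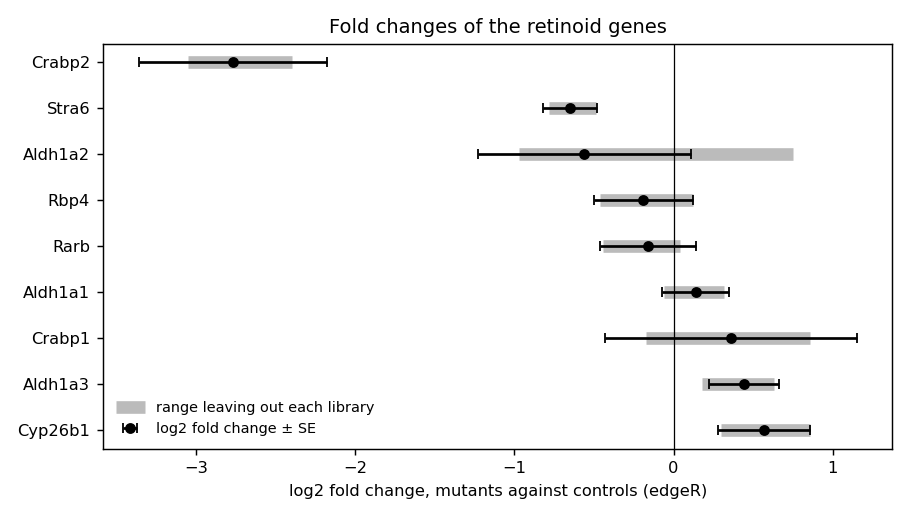
Log2 fold change of each of the 9 genes, mutants against controls, from the edgeR fit (point, with bars of 1 standard error) and the range of the same value when each of the 6 libraries was left out in turn (grey band). The bands of Crabp2 and Stra6 lie below 0, those of Aldh1a3 and Cyp26b1 above 0, and those of the other 5 genes cross it.

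The 3 Aldh1a genes encode the enzymes that turn retinal into retinoic acid. Aldh1a1 (chromosome 19, 20492715 to 20643465) was the most abundant of the 9 genes in CPM, at 200, 162 and 187 CPM in control replicates 1, 2 and 3 and at 145, 253 and 205 CPM in mutant replicates 1, 2 and 3. The groups overlapped, with a log2 difference of 0.14 (standard error 0.21) that was -0.06 without mutant replicate 2. Aldh1a7, a neighbouring copy with a coding sequence 91.6% identical, was read at 1.02 to 2.88 CPM, so fragments wrongly assigned between them would change Aldh1a7 far more than Aldh1a1.

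Aldh1a3 (chromosome 7, 66390890 to 66427517) was the steadiest of the 9 genes among the controls, at 46.3, 41.1 and 46.4 CPM, a coefficient of variation of 6.78%. The mutants were at 43.0, 80.3 and 58.0 CPM, so that mutant replicate 1 lay within the range of the controls and the others above it. Its log2 difference was 0.44 with a standard error of 0.22, and 0.18 without mutant replicate 2. Mutant replicate 2 thus had the highest level of both Aldh1a1 and Aldh1a3.

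Aldh1a2 (chromosome 9, 71215789 to 71296243) varied most among the controls, at 16.4, 79.5 and 12.9 CPM in replicates 1, 2 and 3, a coefficient of variation of 103%. The mutants were closer together, at 22.5, 19.6 and 31.7 CPM, all above control replicates 1 and 3 and all below control replicate 2. The log2 difference was -0.56 (standard error 0.67) and turned to 0.75 without control replicate 2. In that library Aldh1a2 was 5.43 times the mean of the other controls, and the 11 mesothelial or epicardial markers in the table, of 12 listed and with none at 0 throughout, summed to 1874 CPM, 5.998 times the mean of the other controls. Control replicates 1 and 3 had marker sums of 226 and 399 CPM, and mutant replicates 1, 2 and 3 had sums of 268, 578 and 743 CPM. The marker sum and Aldh1a2 were each highest in control replicate 2 and next highest in mutant replicate 3, but the other 4 libraries stood in different orders. Whether cells of the heart's outer lining made up the Aldh1a2 reading was not tested.

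**Figure D3:**
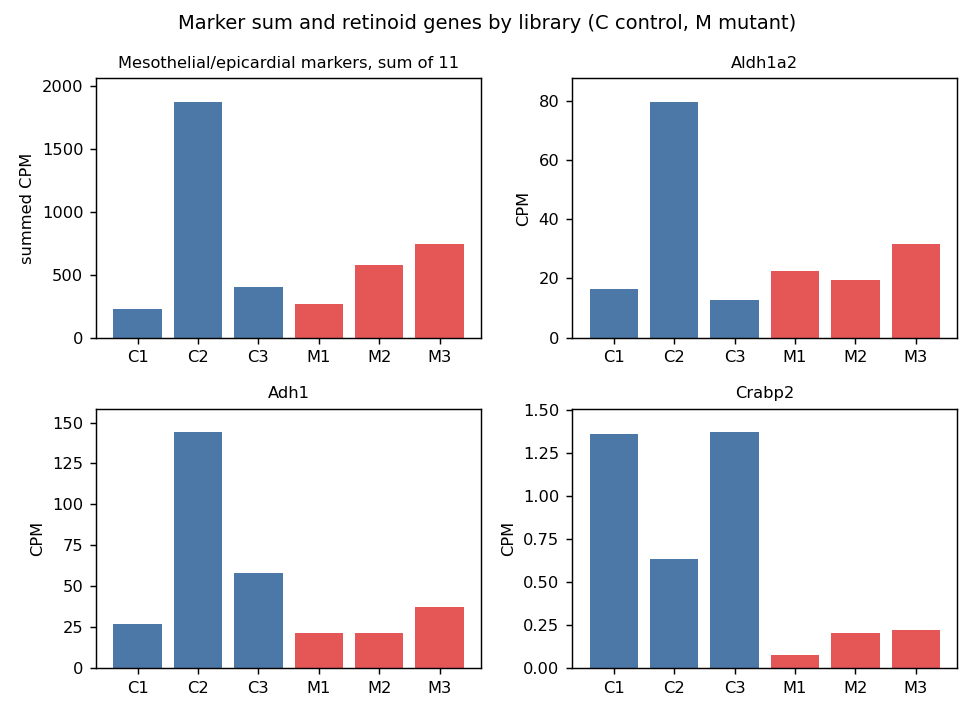
Summed level of 11 mesothelial or epicardial markers and the levels of Aldh1a2, Adh1 and Crabp2, in CPM (linear axes from 0), in control (C1 to C3, blue) and mutant (M1 to M3, red) libraries, 1 bar per library. Control replicate 2 had the highest marker sum, Aldh1a2 and Adh1 (1874, 79.5 and 144 CPM) and the lowest Crabp2 of the controls (0.633 CPM).

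Per length, the 3 Aldh1a genes together came to 57.8, 76.8 and 53.7 CPM per kilobase in the controls and 48.7, 77.4 and 68.1 in the mutants. Aldh1a1 made up 70.1% and 70.7% of that sum in control replicates 1 and 3, but 42.7% in control replicate 2, where Aldh1a2 was the larger part at 45.7%. In the mutants Aldh1a1 made up 60.5%, 66.3% and 61.0%, so that its share in every mutant lay between those of the controls.

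Cyp26b1 (chromosome 6, 84571414 to 84593908) encodes a cytochrome P450 that inactivates retinoic acid. It was read at 40.4, 20.2 and 27.9 CPM in control replicates 1, 2 and 3 and at 35.8, 58.3 and 36.9 CPM in mutant replicates 1, 2 and 3. The groups overlapped through control replicate 1, which lay above 2 of the mutants. The log2 difference was 0.57 with a standard error of 0.29, with 0.30 as the lowest value (mutant replicate 2 left out) and 0.86 as the highest (control replicate 1 left out). Cyp26a1, whose promoter repeat is shown above, was read at 25.1, 5.14 and 9.63 CPM in the controls and at 7.24, 11.7 and 5.93 CPM in the mutants, with overlapping groups. Per length, Cyp26b1 made up 37.0%, 59.1% and 51.2% of the RNA of the 3 Cyp26 genes in the controls and 64.4%, 64.75% and 69.7% in the mutants, all above the controls. This share, too, comes from the contrast that chose the list and was not tested.

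Rarb (chromosome 14, 16430839 to 16819156, minus strand), a retinoic acid receptor and itself a target of the acid, was read at 32.2, 14.3 and 30.9 CPM in control replicates 1, 2 and 3 and at 25.2, 20.1 and 24.2 CPM in mutant replicates 1, 2 and 3. All mutants lay between the lowest control, replicate 2, and the others. The log2 difference was -0.16 (standard error 0.30), -0.44 without control replicate 2 and 0.04 without control replicate 1. Exons of Rarb overlap those of Top2b on the opposite strand over 1793 bases, and whether the counting used strand is not given in the sources used here, so some Rarb fragments may belong to Top2b. Per length, Rarb was the least abundant of the 3 retinoic acid receptor genes, at 9.51% to 19.5% of their sum in the controls and 13.2% to 17.1% in the mutants. Rarg made up 44.1% to 53.7% and Rara 29.9% to 37.0% over all 6 libraries.

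Ordered by the mean level per kilobase of merged exons in the controls, Rbp4 came first at 45.5 ± 15.6 CPM per kilobase (SD, n = 3), followed by Aldh1a1 at 37.1 ± 3.93, Aldh1a2 at 16.0 ± 16.6 and Aldh1a3 at 9.66 ± 0.655. Then came Cyp26b1 at 5.52 ± 1.90, Rarb at 4.90 ± 1.90, Stra6 at 3.75 ± 0.761, Crabp2 at 0.848 ± 0.320 and Crabp1 at 0.441 ± 0.170. Neighbours in this order did not overlap among the controls at 2 steps, from Aldh1a3 to Cyp26b1 and from Stra6 to Crabp2. The other neighbours overlapped, so their order is not settled by 3 libraries. With the longest annotated transcript as the length, Aldh1a1 came before Rbp4, at 77.6 against 52.7 CPM per kilobase, and Cyp26b1 came after Rarb and Stra6. By the means of the mutants Crabp2, at 0.126 ± 0.0588 CPM per kilobase (SD, n = 3), came last, below Crabp1 at 0.569 ± 0.432. In mutant replicate 2 this order was reversed, with Crabp2 at 0.153 and Crabp1 at 0.0946 CPM per kilobase.

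**Figure D4:**
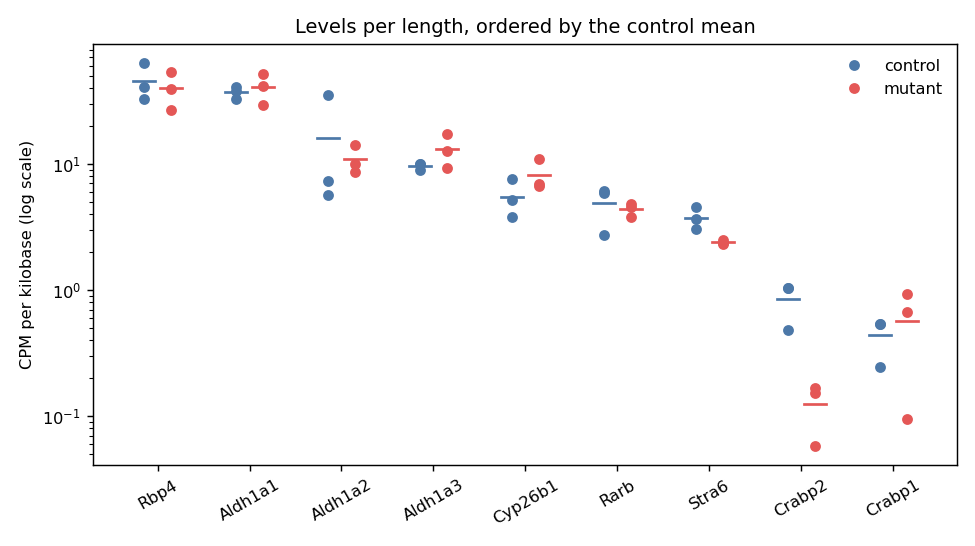
Level of each of the 9 genes in CPM per kilobase of merged exons (log axis), ordered by the control mean. Each point is 1 library (controls blue, mutants red) and each short line is a group mean. Crabp2 and Crabp1 are lowest among the controls, at 0.848 and 0.441 CPM per kilobase, against 45.5 for Rbp4.

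Other genes of the pathway were taken from 6 lists that hold 51 symbols for 50 genes, of which 42 could be tested. Over all 15354 genes, 0 (0%) had an adjusted p under 0.05 in the quasi-likelihood test of edgeR, 529 (3.45%) had an unadjusted p under 0.05, while DESeq2 called 26 genes at that adjusted threshold and limma-voom 0. Of the 42 pathway genes, 0 passed that threshold by edgeR, DESeq2 or limma-voom, and 4 had an unadjusted p under 0.05 in edgeR. In 3 of them, Dhrs3, Tgm2 and Nrip1, all mutants lay below all controls, and in 0 above, where the shares over all 15354 genes were 4.83% below and 4.04% above. The median log2 difference of the 42 genes was -0.16, with 30 lower and 12 higher in the mutants, against a median of 0.01 over the 15354 genes, 7341 of them lower and 8013 higher. The median of the 42 was -0.07 without control replicate 2, -0.10 without mutant replicate 1 and -0.24 without mutant replicate 3, and between -0.23 and -0.15 without each of the others.

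Of the 15 retinoic acid targets tested, of 19 listed, 13 were lower and 2 higher in the mutants, with a median of -0.36. The median was -0.06 without control replicate 2, with 8 lower and 7 higher. It was also -0.06 without mutant replicate 1, with 10 lower and 5 higher. Without mutant replicate 3 it was -0.45, with 14 lower and 1 higher, and it lay between -0.44 and -0.26 without each of the others. Tgm2, tissue transglutaminase, was read at 485, 901 and 536 CPM in control replicates 1, 2 and 3 and at 376, 449 and 388 CPM in mutant replicates 1, 2 and 3. The log2 difference of Tgm2 was -0.66, with a standard error of 0.25 and an adjusted p of 0.999 in edgeR, and it was -0.33 without control replicate 2. Dhrs3, which reduces retinal back to retinol and is induced by retinoic acid, was at 142, 102 and 103 CPM in the controls and 98.1, 87.5 and 83.8 CPM in the mutants, with a log2 difference of -0.36, a standard error of 0.15 and the same adjusted p of 0.999 in edgeR, and it was -0.19 without control replicate 1. Nrip1, a nuclear receptor corepressor, was at 49.9, 58.9 and 51.4 CPM and at 48.1, 43.2 and 39.7 CPM in the same order. In Dhrs3 and Nrip1 the lowest control exceeded the highest mutant by 1.04 times.

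Among the 16 genes of retinol oxidation and its reversal that could be tested, 10 were lower and 6 higher, with a median of -0.19. That median was -0.08 without control replicate 2, -0.12 without mutant replicate 3 and -0.29 without control replicate 3. Without mutant replicate 1, 13 were lower and 3 higher, with a median of -0.13, and 9 to 11 were lower without each of the others. Rdh14 and Dhrs4, which had the highest mean over the 6 libraries per kilobase of merged exons, had log2 differences of 0.09 (standard error 0.21) and 0.07 (standard error 0.27), and both changed sign without control replicate 2 or without mutant replicate 1. Adh1, an alcohol dehydrogenase named here after its values were seen, had the lowest log2 difference of the 42 genes, -1.52, with a standard error of 0.58 and an adjusted p of 0.999 in edgeR. It was read at 26.9, 144 and 58.3 CPM in the controls and at 21.5, 21.4 and 37.2 CPM in the mutants, with overlapping groups, and its difference was -0.67 without control replicate 2. Of the carriers and storage genes 5 were lower and 1 higher of 6, with a median of -0.23. Without control replicate 3 they were 3 lower and 3 higher with a median of -0.04, while the median was -0.39, -0.41 and -0.46 without control replicate 2, mutant replicate 3 and control replicate 1. Rbp7, a cellular retinol carrier, had a difference of -0.29 (standard error 0.31) that turned to 0.12 without control replicate 3. Of the 6 receptors 4 were lower and 2 higher, with a median of -0.04 and values between -0.16 and 0.11, and their median lay between -0.06 and -0.01 when single libraries were left out. Rxra and Rxrb, partners of the retinoic acid receptors and highest of the receptors on the same measure, had differences of -0.16 (standard error 0.13) and -0.07 (standard error 0.10), and stayed below 0 with each library left out, at -0.24 to -0.03 and -0.12 to -0.01. Aldh1a7, placed in the list of retinal oxidation from general knowledge, was the single gene of that list tested. Whether its enzyme acts on retinal was not tested. Its difference was 0.52 (standard error 0.41), or 0.94 with control replicate 2 left out and 0.23 with control replicate 3 left out. For Cyp26a1, of the breakdown genes, the difference was -0.68 (standard error 0.57). It turned to 0.17 without control replicate 1 and was -1.06 without control replicate 2. Aldh8a1 and Cyp26c1 did not reach the minimum count.

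**Figure D5:**
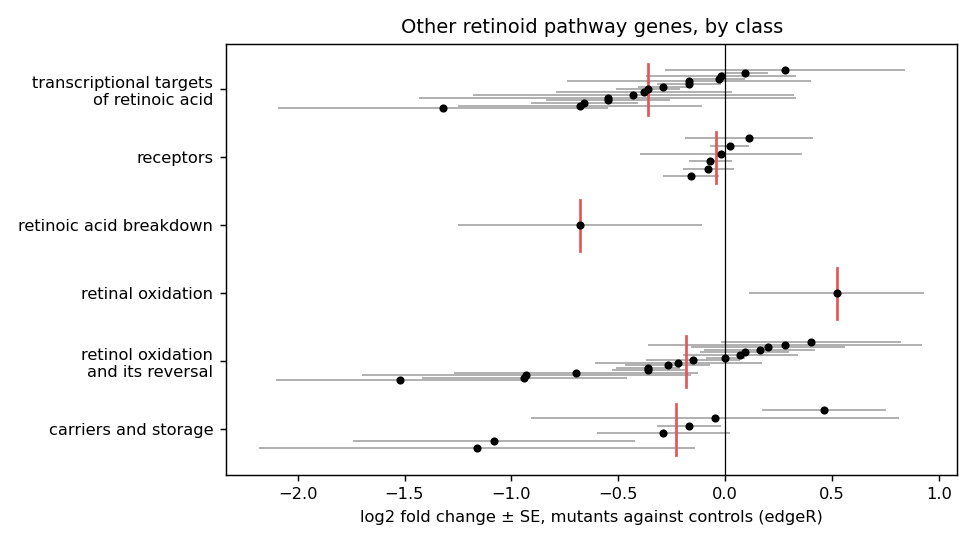
Log2 fold change with bars of 1 standard error, mutants against controls, for the 42 other pathway genes tested, by class (genes in 2 classes are drawn in both). The red line is the median of a class. The receptors lie between -0.16 and 0.11, and the targets of retinoic acid have a median of -0.36 in all 6 libraries. That median was -0.06 without control replicate 2 or without mutant replicate 1, and between -0.45 and -0.26 without each of the others.

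The genes whose pattern over the 6 libraries was most like that of Crabp2 were found by Pearson correlation of log2 CPM among 13694 genes with a mean of at least 1 CPM. They were Ly6k (r = 0.985), Fam110b (r = 0.974), Angptl4 (r = 0.970), Thumpd2 (r = 0.969) and Adam12 (r = 0.965). In all, 46 genes had an r over 0.9, and 6 libraries with a gap between the groups give such values readily. In each of the 5 all mutants lay below all controls, which their choice by likeness to Crabp2 favours, so nothing is read from it. Angptl4, an inhibitor of lipoprotein lipase, averaged 25.02 ± 3.85 CPM (SD, n = 3) among controls, against 14.6 ± 3.34 CPM (SD, n = 3) among mutants, and Adam12, a metalloprotease, 1.72 ± 0.264 and 0.797 ± 0.189 CPM (SD, n = 3 in each). Of the other listed genes, Stra6 was the most like Crabp2, with an r of 0.83 over the 6 libraries, and Cyp26b1 was the least like it of those ranked, with an r of -0.38. Crabp1 was below 1 CPM and was not ranked.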

How the data were processed

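Aortic valve RNA of 3 control and 3 mutant mouse libraries, which each column's description assigns to a sample, was analysed. Reads were mapped by the authors to the mm10 genome (TopHat2 2.0.13, Bowtie2 2.2.1 and Cuffdiff 2.1.1 are in the submitters' processing notes), and they deposited estimated counts per gene, made with Cufflinks and Cuffdiff and not scaled for library size or length. In each library 1.66% to 1.87% of values had decimals, and these were rounded. Fewer fragments mean less precision: 3 counts of a library's total correspond to 0.0538 to 0.0931 CPM.

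The 15354 genes that reached 10 counts in 3 or more libraries were fitted in R 4.3.3 with edgeR 4.0.16 (TMM, quasi-likelihood F test, no covariates), with Benjamini-Hochberg adjustment over all of them at 0.05. Each standard error was derived from the F statistic of the log2 fold change. DESeq2 1.42.0, limma-voom (limma 3.58.1), upper-quartile normalization, no low-count filter, the replicate number as a block and leaving out each library were alternatives. The fits were tested on simulated counts. The authors' Cuffdiff test needs aligned reads and was not run.

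Merged exon lengths and positions come from GENCODE M21 (GRCm38), which matched 97.7% of 23107 symbols. Coding identity was computed from the longest open reading frames. The members and all lists were chosen with earlier results of these data known; lists were written from general knowledge. The text names all 9 members, the 2 pathway genes of each class with the highest mean level per length over the 6 libraries, pathway genes whose groups do not overlap, and the 5 genes most like Crabp2; 1 gene that this rule names is not reported here.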

Additional observations from a re-analysis of the deposited data

How the results depend on the processing

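The low counts of Crabp1 and Crabp2 and the number of 3 libraries per group limit precision. Of 99 recomputed fold changes of the 9 genes, 92 kept their direction and lay within 1 SD of the value given, and 7 changed sign. Crabp1 was -0.06 in limma-voom. Leaving out each library gave -0.17 to 0.86 for Crabp1, -0.06 to 0.32 for Aldh1a1, -0.97 to 0.75 for Aldh1a2, -0.46 to 0.12 for Rbp4 and -0.44 to 0.04 for Rarb. Of the other pathway genes named, a check added after seeing the data, Rdh14 ran from -0.07 to 0.22, Dhrs4 from -0.16 to 0.34, Rbp7 from -0.46 to 0.12 and Cyp26a1 from -1.06 to 0.17. The cause was not tested. DESeq2 had 26 genes with an adjusted p under 0.05 (21 higher, 5 lower) where edgeR had 0, and every other alternative had 0. No alternative called a pathway gene, likewise added. With the longest transcript as length, control levels were 1.20 CPM per kilobase for Crabp2, 77.6 for Aldh1a1, 12.95 for Aldh1a3, 7.11 for Stra6 and 8.31 for Rarb. Same-numbered libraries correlated at 0.29, 0.08 and 0.03 in their deviations from the group means, and libraries of different numbers at -0.27 to 0.2. The 0.29 of replicate 1 was the highest, while 0.08 and 0.03 lay within that range, and the numbers were not taken as pairs. With the replicate block 0 genes had an adjusted p under 0.05, and the log2 difference of Crabp2 was -2.74. With that block Aldh1a2 was -0.04, Crabp1 0.1 and Rarb -0.08, against -0.56, 0.36 and -0.16 in the main fit. In limma-voom Aldh1a2 was -0.12 and Rarb -0.07.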
